A study of Mus musculus with 2 samples.

Results

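CDC42 and the proteins that it acts through were followed in primary mouse myoblasts, with and without the histone methyltransferase MLL1. The set held 9 genes, namely Cdc42 itself, Cdc42ep1, Cdc42ep2, Cdc42ep3, Cdc42ep4, Cdc42ep5, Cdc42se1, Cdc42bpa and Cdc42bpb. A probe set belonged to the set if its only gene symbol in the annotation of the array was one of these names, which gave 10 probe sets of the 21789 with 1 gene symbol and 9 genes of 19938. The family was chosen by the signals of these same arrays, in which Cdc42ep3 stands among the lower genes, so the differences below are a description and support nothing about the choice. Both cultures came from one myoblast line of genotype Rosa-CreER / MLL1 fl/fl, kept for 10 days before treatment in Ham's F10 medium with 20% serum and 5 ng/ml FGF. The Control culture received 0.01% ethanol for 7 days, and the MLL1 KO culture received 500 nM 4-OHT in the same ethanol for 7 days, and each then spent 3 days without additions according to the sample labels (the methods give a shorter washout). The cells had been taken from hind limb muscle of mice a few weeks old by removal of cells with blood, endothelial and stromal surface markers and capture through α7-integrin. The Cre recombinase is expressed from the Rosa26 locus in all cells, becoming active in the nucleus when 4-OHT is present. Control cells therefore carry the floxed alleles and the recombinase but never saw the drug, so deletion of Mll1, recombinase activity and the drug cannot be told apart. RNA of each culture was hybridised to 1 Affymetrix MoGene 1.0 ST array, and with 1 array per condition no test, error or spread between cultures could be given.

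CDC42 is a small GTPase that switches between an inactive GDP-bound form and an active GTP-bound form. Exchange factors load it with GTP, and GTPase-activating proteins switch it off. In the active form it binds effectors, many of which hold a short CDC42-binding motif. Through them it shapes the actin cytoskeleton, cell polarity and filopodia, and in muscle it is known for its part in myoblast migration and fusion. The 5 CDC42 effector proteins encoded by the Cdc42ep genes, also called BORG proteins, bind active CDC42 and also bind septins. Cdc42se1 encodes a small membrane-associated binding protein, and Cdc42bpa and Cdc42bpb encode the MRCK kinases, which raise actomyosin contraction.

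The signals below are log2 RMA values, in which a step of 1 is a doubling of the signal. Of the 9 genes, Cdc42ep3 was over 2-fold lower in the MLL1 KO array, the cut-off of the study's methods, and none was over 2-fold higher. Over all 19938 genes, 0.11% were over 2-fold lower in a probe set and 1.22% were over 2-fold higher. At a cut-off of 1.5-fold the lower gene was again Cdc42ep3, and 1 gene, Cdc42ep5, was higher, where 2.17% of all genes were lower and 5.09% were higher. By sign alone, the MLL1 KO signal exceeded that of the Control for 5 members and lay below it for 4, beside 41.6% and 55.6% of all genes. The median log2 difference of the 9 genes, MLL1 KO minus Control, was 0.10, against -0.05 for all genes. Since the family was chosen with these values known, nothing can be read from its counts against those of all genes.

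**Figure D1:**
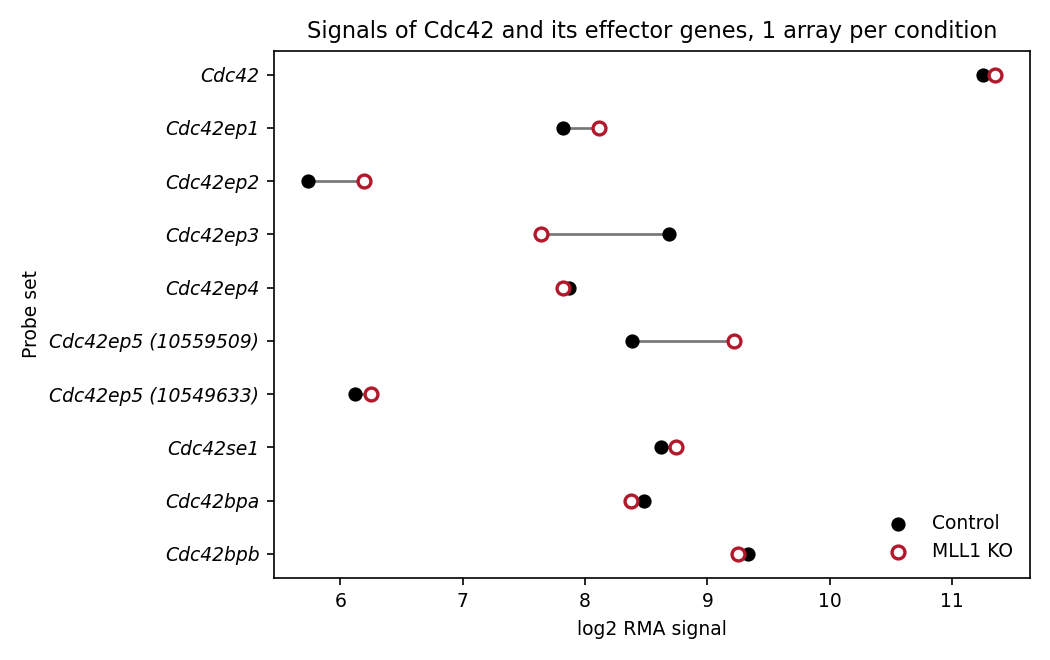
Log2 RMA signal of each member probe set (rows) in the Control array (filled circles) and the MLL1 KO array (open circles), joined by a line. Cdc42ep3 moved from 8.69 to 7.64 and the first Cdc42ep5 probe set from 8.38 to 9.22, and the other probe sets shifted by less than 0.5.

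The probe set of Cdc42ep3 (10453049) gave log2 signals of 8.69 in Control and 7.64 in MLL1 KO, a log2 difference of -1.05. The MLL1 KO signal was thus 2.07-fold lower. It was the 16th lowest difference of the 21789 probe sets and lies just past the cut-off, which 22 probe sets passed in this direction. The probe sets were also split by mean signal into 10 equal groups, and in the group of Cdc42ep3 0.321% of 2179 probe sets were at least as low. With all differences centred on their median it became 1.997-fold lower and no longer passed the cut-off, whereas removal of the trend on signal and renewed quantile normalization kept it past 2-fold. The 4 genes with a log2 difference nearest to it, among those whose brighter array exceeded 7, were Lbr, the lamin B receptor, Lmnb1, lamin B1, Cdkn2c, an inhibitor of cyclin-dependent kinases, and H2bc3, a replication-dependent histone. Their differences lay within 0.05 of that of Cdc42ep3, at -1.03 for Lbr, -1.08 for Lmnb1, -1.01 for Cdkn2c and -1.003 for H2bc3. The genes were picked for this closeness, so the likeness is given by the choice, and it rests on a single difference between 2 arrays. H2bc3 also has close copies in the histone clusters with which its probes may share signal.

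Cdc42ep5 was the member with the largest difference in the other direction. Its probe set for the RefSeq transcript (10559509) gave log2 signals of 8.38 (Control) and 9.22 (MLL1 KO). The MLL1 KO signal was 1.79-fold higher, with a log2 difference of 0.84, and in its signal group 2.98% of probe sets were at least as high. A second probe set of the gene (10549633), which the annotation ties only to a cDNA sequence outside RefSeq, had the lower signals of 6.12 and 6.25. It was 1.10-fold higher, so the probe sets of this gene disagreed by 0.70 on the log2 scale, and their mean difference was 0.48. Which transcripts the second probe set detects was not tested.

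The other BORG genes lay between these. Cdc42ep2 gave log2 signals of 5.74 (Control) and 6.19 (MLL1 KO) and was 1.37-fold higher. Both signals are under 7, the level that the study's methods required of the higher array for lower and MLL1 target genes. For the higher genes that the study listed, the methods set a stricter level. In the signal group of Cdc42ep2, 12.6% of probe sets were at least as high. Cdc42ep1 gave log2 signals of 7.82 (Control) and 8.12 (MLL1 KO) and was 1.23-fold higher. Cdc42ep4 gave log2 signals of 7.86 (Control) and 7.82 (MLL1 KO), a log2 difference of -0.04 whose sign turned when all differences were centred. The 5 BORG genes thus differed in both directions, with 3 higher and 2 lower and gene means from -1.05 to 0.48.

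Cdc42 itself, the switch that all these proteins read, gave log2 signals of 11.25 (Control) and 11.35 (MLL1 KO). It was 1.07-fold higher, and in its signal group 32.6% of probe sets were at least as high. Cdc42se1 gave log2 signals of 8.62 (Control) and 8.74 (MLL1 KO) and was 1.09-fold higher. The kinase genes were both slightly lower. Cdc42bpa had log2 signals of 8.48 and 8.38 in the Control and MLL1 KO arrays and was 1.07-fold lower, and Cdc42bpb had 9.34 and 9.25 and was 1.06-fold lower. The GTPase, the small effector and the kinases together ranged from -0.10 to 0.12 in log2 difference. Whether shifts of this size exceed the variation between cultures cannot be said from 1 array each. The range of the BORG genes was wider, but its lower end is Cdc42ep3, whose value was known when the family was chosen. Nothing can be read from that contrast.

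**Figure D2:**
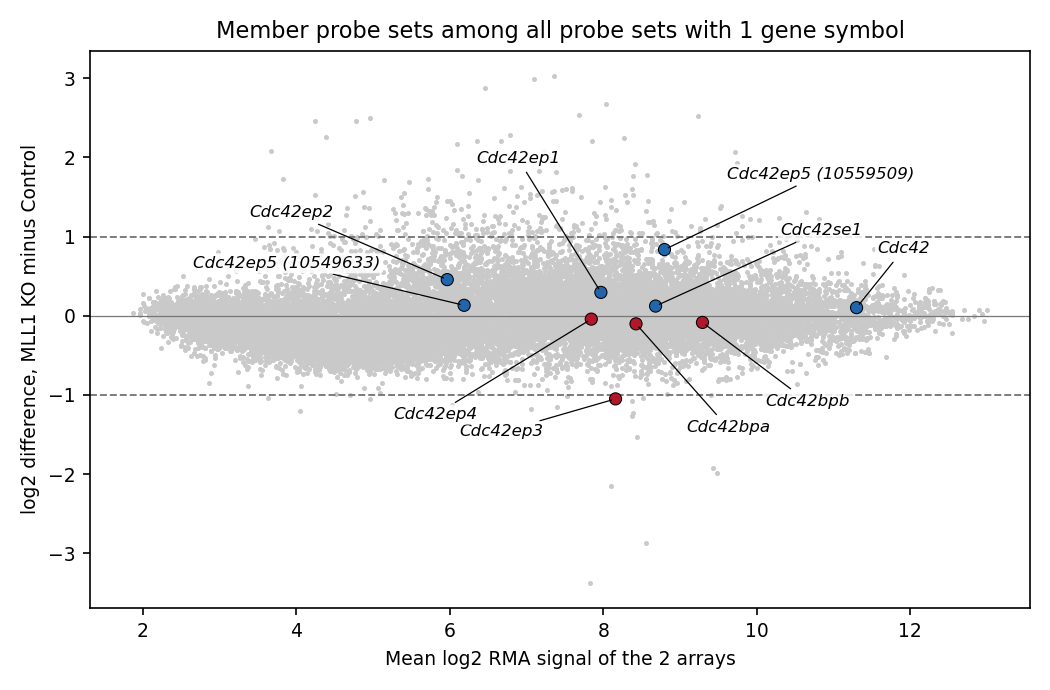
Log2 difference, MLL1 KO minus Control, against the mean log2 RMA signal of both arrays for the 21789 probe sets with 1 gene symbol (grey), with the 10 member probe sets in red (lower) and blue (higher). Dashed lines mark a 2-fold difference. Cdc42ep3, at -1.05, is the member past a dashed line, and Cdc42ep5, at 0.84, comes nearest to the upper one.

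Of the members with the largest difference in each direction, the promoter sequences are shown for comparison, since MLL1 is known to bind unmethylated CpG dinucleotides through its CXXC domain. Each is the 250 bases before the annotated start, 5′ to 3′ on the gene's strand, from the RefSeq annotation of GRCm38.p6, with CpG dinucleotides in capitals. That of Cdc42ep3 is chr17:79355092-79355341 on the minus strand, and that of Cdc42ep5 is chr7:4164706-4164955 on the minus strand.
Cdc42ep3: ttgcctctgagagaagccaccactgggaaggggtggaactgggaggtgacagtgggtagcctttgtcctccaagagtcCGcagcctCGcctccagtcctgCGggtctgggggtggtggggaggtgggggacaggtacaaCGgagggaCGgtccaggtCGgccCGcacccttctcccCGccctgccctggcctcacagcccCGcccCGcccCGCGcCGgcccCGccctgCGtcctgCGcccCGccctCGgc
Cdc42ep5: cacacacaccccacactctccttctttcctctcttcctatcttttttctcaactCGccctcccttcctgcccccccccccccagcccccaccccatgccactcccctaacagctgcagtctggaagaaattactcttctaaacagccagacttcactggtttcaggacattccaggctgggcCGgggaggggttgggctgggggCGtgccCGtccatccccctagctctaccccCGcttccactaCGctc

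The Cdc42ep3 sequence held 18 CpG dinucleotides, of which 10 lay in the last 50 bases before the start. That of Cdc42ep5 held 6, with 4 in the last 50 bases. Of the 32851 starts in the table, 21.7% had at least as many as Cdc42ep3 and 50.4% at least as many as Cdc42ep5. The median was 6 over all starts and 10 over the 21263 starts of protein-coding genes. All 9 genes matched the table, with 12 starts in all, and their counts ran from 4 at one start of Cdc42bpa to 38 at Cdc42bpb. Cdc42bpb, Cdc42ep1 with 29, one start of Cdc42se1 with 35 and one of Cdc42ep4 with 23 held more than Cdc42ep3. The letters GGGCGG, the GC box, which itself contains a CpG, were searched on both strands and occurred 5 times in the Cdc42ep3 sequence, 5 times in that of Cdc42ep1 and not in that of Cdc42ep5. They were present at 7 of the 12 starts, at 32.7% of all starts and at 42.6% of those of protein-coding genes. The letters CAGCTG, the only form of the E-box that was searched, read the same on both strands. They were present at 4 of the 12 starts, at 13.0% of all starts and at 12.1% of those of protein-coding genes. The 4 starts were those of Cdc42ep5, Cdc42ep2 and Cdc42bpb and one of Cdc42bpa, of which the first pair were higher and the kinase genes lower in the MLL1 KO array. These matches describe the letters in the window, and binding of MLL1 to these promoters was not analysed here.

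**Figure D3:**
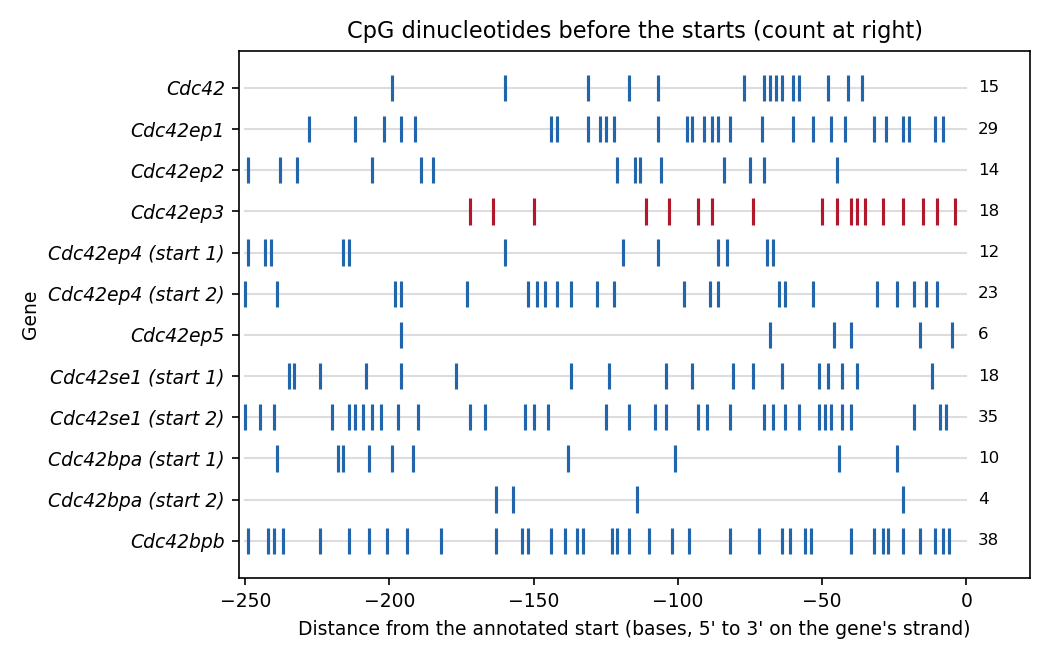
Position of each CpG dinucleotide (vertical ticks) in the 250 bases before each annotated start of the 9 genes, with the distance from the start in bases on the x axis and the count at the right. Cdc42ep3 (red) had 18, most of them near the start, Cdc42ep5 had 6 and Cdc42bpb had 38.

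Genes that regulate CDC42 or act beside it were described in 6 lists of 98 genes, of which 92 were measured. Of these, 2 were over 2-fold higher in the MLL1 KO array and none was over 2-fold lower, beside 1.22% and 0.11% of all genes. Counted by sign alone, 50 pathway genes stood above 0, 41 below and 1 at 0, around a median of 0.03. Over all genes, 41.6% were higher and 55.6% were lower, and the sign counts of each list below stand beside these shares.

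Of 23 other measured effectors of CDC42, 14 were higher, 8 were lower and 1 was equal. The one over 2-fold was Pak3, a p21-activated kinase best known in neurons, whose weak log2 signals of 4.26 (Control) and 5.62 (MLL1 KO) made it 2.58-fold higher. The median of the list was 0.03, and its sign turned when the trend on signal was removed or the arrays were quantile normalized again. The closest relatives of the members, named here for their kinship after their values were seen, were Cdc42se2, with log2 signals of 9.69 and 9.65 in the Control and MLL1 KO arrays, and Cdc42bpg, with 7.51 and 7.91. Cdc42bpg was thus 1.32-fold higher where the other MRCK kinases were slightly lower.

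Of 21 exchange factors, 9 were higher against 12 lower, none over 2-fold, and the list median of -0.07 came to 0 when the trend on signal was removed. Arhgef6, the exchange factor α-PIX, had the largest increase, from 5.20 in the Control array to 5.80 in the MLL1 KO array, a 1.51-fold higher signal. Fgd5, an exchange factor known from endothelial cells, had the largest decrease, from 5.49 to 5.08.

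Of 13 GTPase-activating proteins, 8 were higher against 5 lower (list median 0.21, or 0.13 after renewed quantile normalization). Srgap1, which acts on CDC42 in Slit and Robo signalling, gave log2 signals of 6.14 (Control) and 7.30 (MLL1 KO) and was 2.24-fold higher. At a cut-off of 1.5-fold, 2 genes of the list were higher and 1 was lower, beside 5.09% and 2.17% of all genes. The higher ones were Srgap1 and Srgap3, the latter in 1 of its 2 probe sets (1.52-fold, against 1.23-fold in the other). Srgap3 and the lower gene were looked up after their values were seen. Arhgap31, a GTPase-activating protein for CDC42 and RAC1, was 1.53-fold lower, with log2 signals of 8.24 (Control) and 7.62 (MLL1 KO). The genes that switch CDC42 off thus differed both ways.

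The septins, to which the BORG proteins bind, form filaments beside actin and the cell membrane. Of 12 measured septin genes, 4 were higher against 8 lower and none was over 1.5-fold. The list median of -0.13 came to -0.08 with all differences centred and to -0.07 with the trend on signal removed. Septin4 had the largest decrease, with log2 signals of 5.28 (Control) and 4.78 (MLL1 KO), and Septin9 had the largest increase, from 11.19 to 11.32. Among septins with strong signals, which were named after their values were seen, Septin11 was 1.17-fold lower and Septin2 was 1.06-fold lower, and Septin7 was 1.06-fold higher.

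Of 12 genes of the Arp2/3 complex, which nucleates branched actin, and of LIM kinases and cofilins, 9 were higher against 3 lower (list median 0.09, or 0.14 with centring and 0.05 after renewed quantile normalization), and none was over 1.5-fold. Arpc5, a subunit of the complex, had a log2 difference of 0.39 and Actr3, another subunit, one of -0.27. Of 11 actomyosin genes that work with the MRCK kinases, 6 were higher against 5 lower, and the sign of the list median, 0.03, turned under renewed quantile normalization and with the brightest probe set of a gene. Myl9, a regulatory myosin light chain, gave log2 signals of 9.36 (Control) and 10.07 (MLL1 KO) and was 1.63-fold higher, and Myh10, a non-muscle myosin heavy chain, was 1.21-fold lower.

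**Figure D4:**
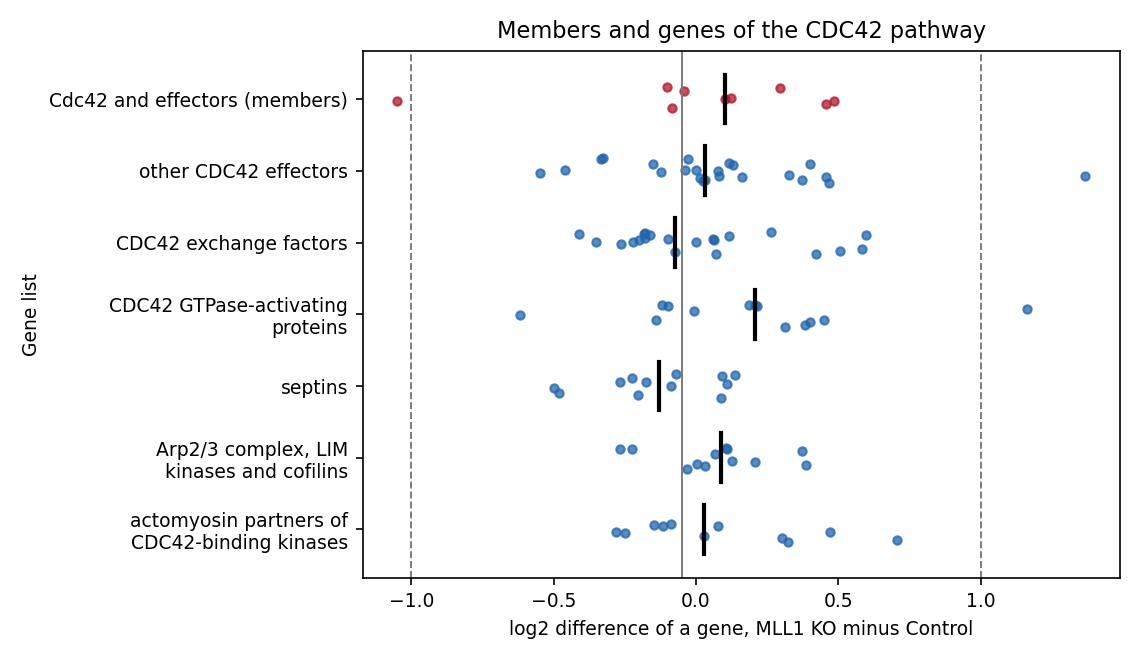
Log2 difference, MLL1 KO minus Control, of each gene (points, mean of its probe sets) in the member set (red) and the 6 pathway lists (blue), with the median of each list as a black bar. The grey line is the median of all genes, -0.05, and dashed lines mark 2-fold. Points past a dashed line are Cdc42ep3 on the left and Pak3 and Srgap1 on the right.

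The arrays were also compared for what else moved with the members. Kmt2a, the gene of MLL1, gave log2 signals of 9.44 (Control) and 9.66 (MLL1 KO), but its probe set summarises the whole transcript and so checks nothing about the deletion. The study assessed the deletion by RT-qPCR and reported loss of the MLL1 protein by western blot and immunostaining. It also showed fold changes along the transcript with the floxed exons marked. All 10 markers of myoblasts had a log2 signal over 9 in the Control array. Of these, 3 were higher and 7 lower in the MLL1 KO array, with a median of -0.11, and 1, Myf5, was over 2-fold lower. Of 10 markers of muscle differentiation, 9 were higher in the MLL1 KO array, with a median of 0.71 and signals from 5.77 to 10.50 in the Control array and from 5.76 to 10.98 in the MLL1 KO array. Tnni1 and Mymk, which encode slow troponin I and myomaker, were the ones over 2-fold. Of 14 genes of S phase, 13 were lower, with a median of -0.47 and signals from 7.67 to 11.66 in the Control array and from 6.95 to 11.25 in the MLL1 KO array. The part of these shifts in the differences of Cdc42ep3 and Cdc42ep5 was not tested. Of 10 fibroblast, 8 endothelial and 7 immune markers, 1, the lysosomal gene Cd68, was over 2-fold, from 6.08 in the Control array to 7.47 in the MLL1 KO array. Cd68 is listed as an immune marker, but the 6 other measured immune markers were all lower. The list medians of these other cell types lay between -0.27 and -0.23, and their signals ran from 2.58 to 8.12 (Control) and 2.39 to 7.67 (MLL1 KO) for fibroblasts, from 3.64 to 5.65 and 3.64 to 5.28 for endothelial cells and from 3.48 to 6.08 and 3.24 to 7.47 for immune cells. In RNA from a whole culture, fewer cells of a type and less RNA per cell cannot be told apart. Many of these signals are also weak and have no detection call, and the median over all genes was itself -0.05. The marker lists were not recomputed after centring or removal of the trend on signal. Whether a general shift of weak signals has a part in their medians was not tested.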

How the data were processed

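Gene expression was measured in 2 cultures, each on 1 Affymetrix MoGene 1.0 ST array. The authors normalized the scans by RMA with Bioconductor and deposited log2 signals of 35557 probe sets, with a software version not given in the sources used here. RMA equalises the distributions of probe signals between arrays, so a shift of all genes would not show, and no detection calls came with the values. The deposited probe set signals were close in distribution but not equal, with medians of 5.56 (Control) and 5.57 (MLL1 KO) over all probe sets. Probe sets were named through the platform annotation, updated by gene number to RefSeq (GRCm38.p6). Those with 1 symbol (21789) were kept, those with several (1621) or none (12147) were not, and no probe set with several symbols held a member. Of 98 pathway genes, 6 had no probe set with 1 symbol. A list of related genes and some genes of another are not reported here.

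Differences are MLL1 KO minus Control, folds are their antilogs, and a gene passed if any probe set exceeded 2-fold, whereas medians use the mean of its probe sets. The members and lists were chosen with earlier results of these data known. By rule, the named genes are the members, list genes over 2-fold or else the list's extremes, the 4 nearest to Cdc42ep3 and Kmt2a. Others (Arhgap31, Srgap3, Cdc42se2, Cdc42bpg, Septin2, Septin7 and Septin11) were chosen after their values were seen. A single array per condition allowed no test and sets the limit of precision. Alternatives were other cut-offs, a signal over 7, centring, removal of a lowess trend (span 0.3), renewed quantile normalization, all probe sets and the brightest probe set. Python 3.11.15, numpy 2.4.6, pandas 2.3.3, statsmodels 0.14.6 and matplotlib 3.10.9 were used. No column was left unused.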

Additional observations from a re-analysis of the deposited data

How the results depend on the processing

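Of the 10 member probe sets, 9 kept the sign of their difference under centring, removal of the trend on signal and renewed quantile normalization, and Cdc42ep4 did not. Centring took the log2 difference of Cdc42ep3 to -0.998, so the count of members over 2-fold lower became 0, as it did at 3-fold. At 1.5-fold, 1 member was higher. The median of the members was 0.15 with centring, 0.0629 after quantile normalization and 0.0207 as a mean. Of the pathway genes, 6 were higher and 1 lower at 1.5-fold, 0 were higher at 3-fold, and 1 was higher with a signal over 7. The share of all genes over the cut-off was 5.09% higher and 2.17% lower at 1.5-fold and 0.201% higher and 0.0251% lower at 3-fold. With a signal over 7, 0.195% were lower, and of all probe sets 2.62% were higher and 0.219% were lower. The cause of these moves was not tested beyond the construction of each alternative. The lack of a second array limits every value, and low signals such as those of Cdc42ep2 and Pak3 have no detection call.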
